A study of Mus musculus with 2 samples.

Results

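Glycolysis splits glucose into pyruvate in the cytosol, and pyruvate is then either reduced to lactate or passed into mitochondria. When oxygen is scarce, hypoxia-inducible factors (HIFs) accumulate and raise the transcription of glucose transporters, of glycolytic enzymes and of genes for oxygen supply and survival. Neural stem cells are known for a strongly glycolytic metabolism, which shifts towards mitochondrial respiration as they become neurons. Chd4, the gene targeted in this study, encodes the ATPase of the NuRD complex, which moves nucleosomes and removes histone acetyl groups.

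The genes described here are 33 genes of glycolysis and of the response to hypoxia, taken by symbol from the deposited expression table of 17359 genes, and all 33 were found. They fall into 16 glycolytic enzymes, 4 transporters of glucose and monocarboxylates, 3 genes of the pyruvate dehydrogenase gate, the 2 HIF alpha subunits and 8 HIF targets outside glycolysis. Several enzymes and transporters are themselves known HIF targets, so the groups mark roles and not separate regulation.

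The cells were mouse neural stem cells, labelled by genotype as control or Chd4 knockdown. One group received a scrambled small interfering RNA (siSCR, 1 library) and the other a small interfering RNA against Chd4 (siChd4, 1 library). The sources used here do not give the age or strain of the mice, the source of the cells, or the dose and duration of the transfection. With 1 library per group there is no test between conditions, and each difference below compares 2 libraries and not the conditions.

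The libraries held 19816811 (siSCR) and 20072009 (siChd4) estimated counts, of which the 33 genes took 0.9996% and 0.987%. Chd4 itself was at 250 TPM in siSCR (TPM is transcript abundance corrected for transcript length and set to the same total in every library) and 203 TPM in siChd4, a fold of 0.815 with a 95% counting interval of 0.795 to 0.836. This difference in the targeted transcript was within the 1.5-fold limit used below. Of all genes with a mean of at least 1 TPM, 19.4% had a lower log2 ratio than Chd4. All 11 neural stem cell markers were present, from 18.2 TPM (Hes5 in siSCR) to 7004 TPM (Fabp7 in siChd4). Markers of microglia (6 in the table) and erythroid cells (4 in the table) had 0 members with a mean of at least 1 TPM. Of the endothelial and mural markers, 1 of 7 reached that mean, at 0.86 and 1.21 TPM (Kdr). In bulk RNA, fewer cells of a type and less RNA per cell cannot be told apart.

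Promoter windows are shown because they belong to the enzymes, the transporter and the kinase with the largest differences between the libraries (Eno2, Hk2, Slc16a1 and Pdk1) and to a pair of known HIF targets (Ldha and P4ha1). Each holds the 250 bases before the annotated start site furthest upstream, from RefSeq on the GRCm38.p6 assembly, which differs from the mm39 build of the expression table. Capitals mark the core of the hypoxia response element, ACGTG or GCGTG on either strand. The windows lie at chr6:124769674-124769923 on the minus strand (Eno2), chr6:82774455-82774704 on the minus strand (Hk2), chr3:104638414-104638663 on the plus strand (Slc16a1), chr2:71872974-71873223 on the plus strand (Pdk1), chr7:46845554-46845803 on the plus strand (Ldha) and chr10:59323046-59323295 on the plus strand (P4ha1).
Eno2: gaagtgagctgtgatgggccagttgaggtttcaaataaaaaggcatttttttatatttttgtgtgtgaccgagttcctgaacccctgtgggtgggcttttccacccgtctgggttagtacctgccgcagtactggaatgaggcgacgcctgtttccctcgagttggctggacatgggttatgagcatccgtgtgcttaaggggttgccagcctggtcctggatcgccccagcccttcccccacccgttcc
Hk2: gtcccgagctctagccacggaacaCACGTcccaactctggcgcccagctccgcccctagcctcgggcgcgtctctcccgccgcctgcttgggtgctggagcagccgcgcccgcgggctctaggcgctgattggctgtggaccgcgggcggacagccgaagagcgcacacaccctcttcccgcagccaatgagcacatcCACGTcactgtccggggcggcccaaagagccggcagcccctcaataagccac
Slc16a1: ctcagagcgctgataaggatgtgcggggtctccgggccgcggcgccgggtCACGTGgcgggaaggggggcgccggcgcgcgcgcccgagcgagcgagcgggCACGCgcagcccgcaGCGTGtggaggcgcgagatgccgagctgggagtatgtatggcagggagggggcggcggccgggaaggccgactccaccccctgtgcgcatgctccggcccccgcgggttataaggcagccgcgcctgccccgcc
Pdk1: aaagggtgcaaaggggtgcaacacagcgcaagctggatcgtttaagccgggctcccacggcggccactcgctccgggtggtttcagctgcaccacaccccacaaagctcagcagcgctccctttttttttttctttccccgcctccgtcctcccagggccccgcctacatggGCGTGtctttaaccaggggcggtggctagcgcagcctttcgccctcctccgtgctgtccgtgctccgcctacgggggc
Ldha: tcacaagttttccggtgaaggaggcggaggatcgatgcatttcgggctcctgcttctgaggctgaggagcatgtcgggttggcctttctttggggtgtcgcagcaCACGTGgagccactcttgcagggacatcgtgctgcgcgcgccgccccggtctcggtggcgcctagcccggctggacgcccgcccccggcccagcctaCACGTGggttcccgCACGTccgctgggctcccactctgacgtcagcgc
P4ha1: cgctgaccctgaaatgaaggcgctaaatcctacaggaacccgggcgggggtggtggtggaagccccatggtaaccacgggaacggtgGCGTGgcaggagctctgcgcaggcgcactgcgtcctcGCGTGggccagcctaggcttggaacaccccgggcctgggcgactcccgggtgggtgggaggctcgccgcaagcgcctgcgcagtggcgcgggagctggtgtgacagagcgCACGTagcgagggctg

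Of these windows, that of Eno2 held 0 matches. Hk2 had 2 matches, at 226 and 52 bases before the start, and Pdk1 had 1, at 78 bases. Ldha had 5 and Slc16a1 had 4, where a CACGTG counts once on each strand: Ldha holds 2 such words, at 145 and 48 bases before the start, and Slc16a1 holds 1, at 200 bases. P4ha1 had 3 matches, at 163, 126 and 16 bases. RefSeq windows were matched for 30 of the 33 genes by Entrez number, and Slc2a3, Epas1 and Ndrg1 had no entry. A match was present in 23 of the 30 windows (76.7%), against 57.2% of the 10330 windows of genes with a mean of at least 1 TPM and 38.6% of all 27025 windows. By role, it was present in 10 of 16 windows of glycolytic enzymes (62.5%) and 6 of 7 of HIF targets outside glycolysis (85.7%). Every window of the other roles held one. The 30 windows include Slc16a3 and Ankrd37, which were below a mean of 1 TPM. The median GC content was 63.4% in the 30 windows and 60.0% in the 10330. The word is short and rich in CG, and a match describes letters in this window and not a bound site. Which start sites these cells use was not examined, so a window need not be the promoter in use.

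The transcripts of the glycolytic pathway were similar in amount in the libraries. Among the enzymes, the largest relative differences were in Eno2 and Hk2, isoforms of low level. Differences past 1.5-fold on the scale of TPM plus 1 were found for 1 gene that was higher in siChd4, Eno2, and 3 that were lower, Slc16a1, Pdk1 and Ndrg1, of the 31 genes with a mean of at least 1 TPM. Among all 12882 genes with that mean, 6.74% were past the limit as higher and 4.47% as lower, and 1 and 3 of 31 are 3.23% and 9.68%. These were 868 higher and 576 lower genes, so 60.1% of them were higher, against 71.0% on FPKM (721 and 295 genes). The median log2 ratio of siChd4 over siSCR was -0.05 for the 31 genes and -0.04 for all genes, so the set as a whole lay near the background. Slc16a3 and Ankrd37 were below the minimum and entered no count. Ndrg1 met the minimum only through siSCR, at 2.10 TPM against 0.38 TPM in siChd4. Its call as lower therefore depends in part on that minimum.

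**Figure D1:**
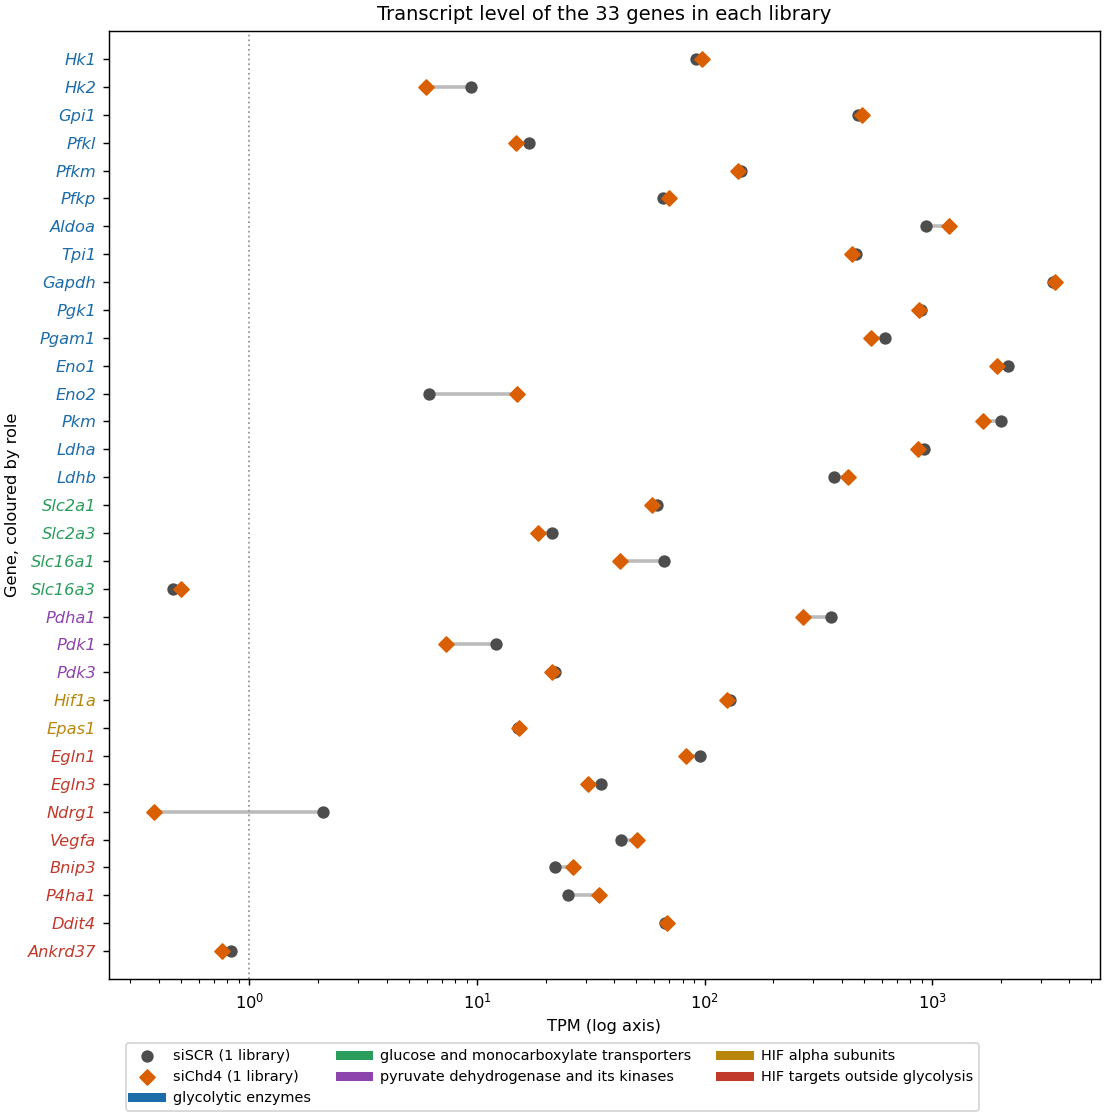
Level of each of the 33 genes in the siSCR library (grey circles) and the siChd4 library (orange diamonds), in TPM on a log axis, with gene names coloured by role and a dotted line at 1 TPM. Most pairs of points nearly coincide, from Gapdh at 3379 and 3442 TPM down to Epas1 at 15.2 and 15.2 TPM, while Eno2, Hk2, Slc16a1, Pdk1 and Ndrg1 are visibly apart.

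Glycolysis begins with hexokinase, which traps glucose in the cell as a phosphate. Hk1, the constitutive isoform of brain, was at 91.9 TPM in siSCR and 97.4 TPM in siChd4 (1.06-fold, counting interval 1.01 to 1.12). Hk2, the inducible isoform and a known HIF target, was at 9.43 and 5.96 TPM (0.632-fold, 0.538 to 0.741). Hk2 missed the limit narrowly, since the limit is on TPM plus 1, where its log2 ratio was -0.584. With a smaller pseudocount of 0.1 (-0.653), or on counts scaled to library size (CPM) with TMM factors (-0.586), it passed. Hk1 made up 90.7% of the summed level of Hk1 and Hk2 in siSCR and 94.2% in siChd4, and the sum of both genes was 101.3 and 103.4 TPM.

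Gpi1, which turns glucose phosphate into fructose phosphate, was at 471 and 488 TPM in siSCR and siChd4. Phosphofructokinase commits the sugar to glycolysis, and its transcripts came mainly from the muscle-type gene Pfkm, at 144 and 140 TPM. The platelet-type gene Pfkp was at 65.7 and 69.6 TPM and the liver-type gene Pfkl at 17.0 and 14.8 TPM. The 3 phosphofructokinase genes kept similar shares, with Pfkm at 63.6% and 62.3%, Pfkp at 29.0% and 31.1%, and Pfkl at 7.48% and 6.61%, and the counting intervals of each share overlapped. Aldoa, the aldolase that splits the sugar, was at 935 TPM in siSCR and 1189 TPM in siChd4 (1.27-fold, 1.24 to 1.30), below the limit. After Eno2, it had the largest upward ratio of the 16 enzymes, and 13.5% of all genes had a higher one. Tpi1, which interconverts the resulting trioses, was at 463 and 443 TPM.

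The later, energy-yielding steps held the most abundant of the transcripts. Gapdh, which oxidises the triose phosphate, was at 3379 TPM in siSCR and 3442 TPM in siChd4, rank 10 of 12882 genes by mean level. Its fold of 1.02 (1.004 to 1.033) fell on the other side of 1 when the trend with transcript length was subtracted (log2 ratio -0.03). Pgk1, the first ATP-forming enzyme, was at 889 and 877 TPM, a fold of 0.987 whose interval of 0.963 to 1.01 includes 1. Pgam1, the mutase that follows, was at 618 and 536 TPM (0.868-fold, 0.842 to 0.895). Pkm, the pyruvate kinase, was at 2007 and 1665 TPM (0.829-fold, 0.817 to 0.842). Its splice forms are not separated in a table by gene.

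Enolase removes water to make phosphoenolpyruvate, and its genes Eno1 and Eno2 differed in direction. Eno1, the ubiquitous isoform, was at 2149 TPM in siSCR and 1924 TPM in siChd4 (0.896-fold, 0.881 to 0.910). Eno2, the neuron-specific enolase used as a marker of neurons and neuroendocrine cells, was at 6.12 and 14.9 TPM (2.44-fold, 1.98 to 3.02), from 129 and 321 estimated counts. The log2 ratio of Eno2 on TPM plus 1 was 1.16, and 1.58% of all genes had a higher one. Eno2 was still a minor part of the summed level of Eno1 and Eno2, at 0.284% (0.237% to 0.337%) in siSCR and 0.770% (0.688% to 0.859%) in siChd4. The muscle enolase gene Eno3, outside the set, was at 6.39 and 7.27 TPM.

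Neuronal markers were also higher in siChd4. Of 10 such markers, 9 had a mean of at least 1 TPM, and their median log2 ratio was 1.17. Of these, 6 were past the limit as higher in siChd4 and 0 as lower, against 6.74% and 4.47% of all genes. The summed level of the 10 neuronal markers was 485 TPM in siSCR and 682 TPM in siChd4. Most of it came from Map2, at 427 and 516 TPM (1.21-fold, below the limit). Tubb3 was at 8.70 and 40.0 TPM and Syn1 at 13.2 and 33.3 TPM, and 0 markers were at 0 in either library. Oligodendrocyte lineage markers were also higher, with 5 of 6 past the limit and summed levels of 44.0 and 80.5 TPM. The largest part of both sums was Cspg4, at 28.2 and 30.3 TPM (1.07-fold, below the limit). The part of these cell types in the level of Eno2 was not tested.

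Lactate dehydrogenase converts pyruvate to lactate and back. Ldha, whose product favours lactate formation and which is a known HIF target, was at 918 TPM in siSCR and 863 TPM in siChd4 (0.940-fold, 0.916 to 0.965). Ldhb, whose product favours the reverse direction and is typical of oxidative tissue, was at 370 and 426 TPM (1.15-fold, 1.101 to 1.203). Their sum was 1288 and 1289 TPM, so the total was the same to within its counting interval (fold 0.978 to 1.02) while the make-up differed: Ldhb was 28.7% (28.0% to 29.5%) of it in siSCR and 33.04% (32.3% to 33.8%) in siChd4. The ratio of Ldha to Ldhb was 2.48 in siSCR and 2.03 in siChd4.

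The 16 enzymes together were at 12534 TPM in siSCR and 12196 TPM in siChd4, which is 1.253% and 1.220% of all transcripts by TPM. The fold of this sum was 0.973 (counting interval 0.966 to 0.980), but it was 1.01 on FPKM values and 0.999 on CPM, so its direction depends on the scaling. Of the 16 enzymes, 1 was past the limit (Eno2), 7 had log2 ratios above 0 and 9 below, and the median was -0.03 against -0.04 for all genes. That median was 0.018 with upper quartile scaling, 0.026 on FPKM and 0.0023 on CPM with TMM factors, where the median of all genes was 0.0087, 0.015 and -0.0092.

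**Figure D2:**
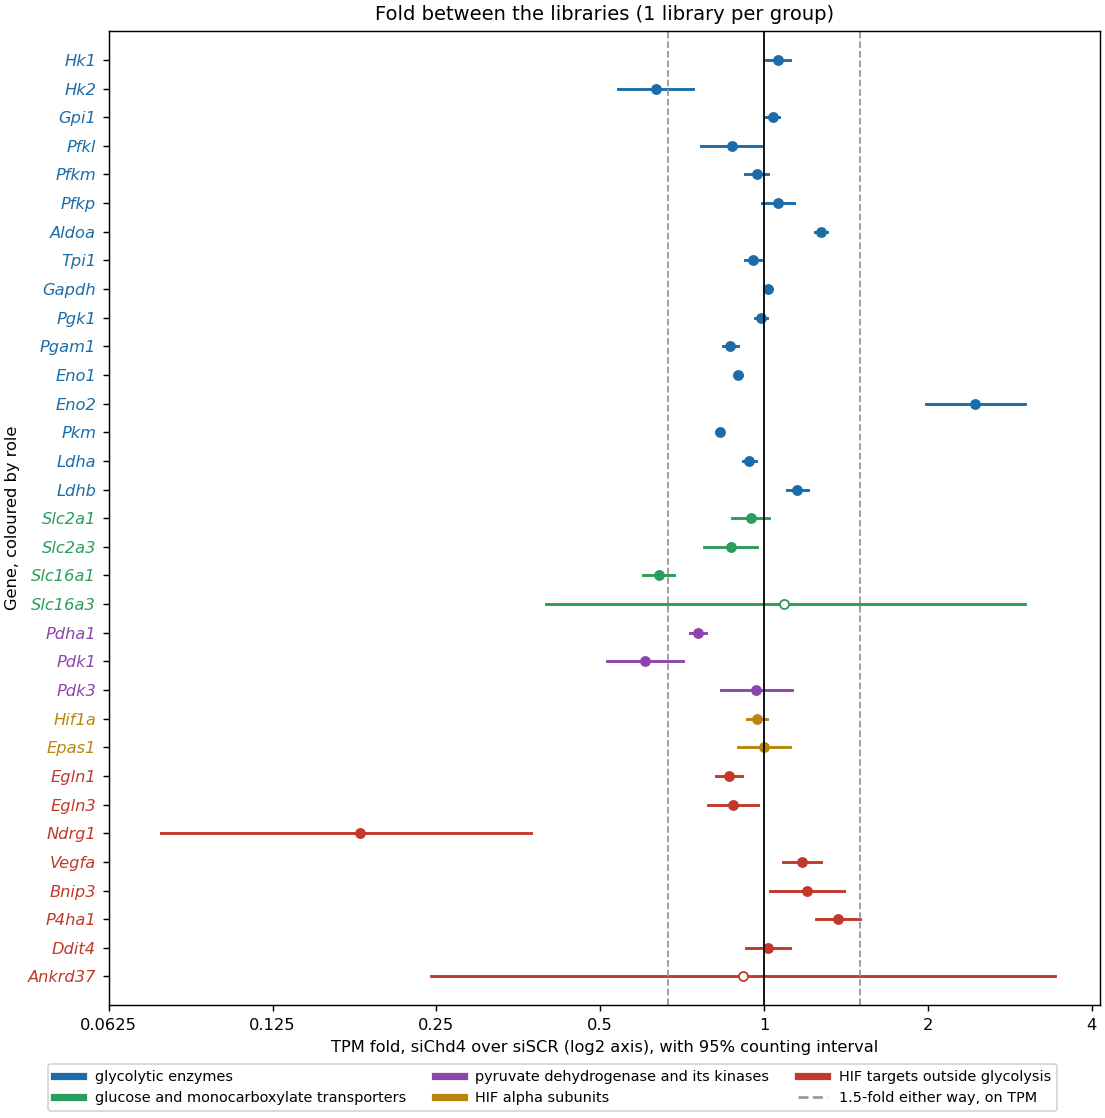
TPM fold of siChd4 over siSCR for each gene on a log2 axis, with bars for the 95% counting interval and dashed lines at 1.5-fold either way on TPM. Open circles are Slc16a3 and Ankrd37, below a mean of 1 TPM. Most enzymes lie close to 1 with narrow bars, Eno2 lies to the right at 2.44-fold, and Hk2, Slc16a1, Pdk1 and Ndrg1 lie to the left at 0.632, 0.640, 0.605 and 0.181-fold.

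Of the 3 transporters of the set above the minimum, the monocarboxylate carrier Slc16a1 had the largest difference. Slc2a1, the basal glucose transporter of most cells, was at 61.9 TPM in siSCR and 58.5 TPM in siChd4, a fold of 0.945 whose interval of 0.872 to 1.02 includes 1. Slc2a3, the high-affinity glucose transporter of neurons, was at 21.2 and 18.45 TPM (0.869-fold, 0.777 to 0.971) and took 25.5% and 24.0% of the summed level of these 2 glucose transporters. Slc16a1, which carries lactate, pyruvate and ketone bodies across the membrane, was at 66.3 and 42.5 TPM (0.640-fold, 0.600 to 0.683; log2 ratio -0.63). It was past the limit, and 3.52% of all genes had a lower log2 ratio. This call was lost with upper quartile scaling (-0.58) and on FPKM (-0.56).

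Slc16a3, the lactate exporter that HIF induces in strongly glycolytic cells, was near the lower limit of detection, at 0.46 TPM in siSCR and 0.50 TPM in siChd4. These values came from 8.84 and 9.65 estimated counts, and the counting interval of the fold ran from 0.397 to 3.02. A difference of this size was not detectable at this depth. Slc16a1 therefore made up 99.3% and 98.8% of the monocarboxylate transporter transcripts of these 2 genes.

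At the entry to mitochondria, Pdha1, the catalytic alpha subunit of pyruvate dehydrogenase, was at 357 TPM in siSCR and 270 TPM in siChd4 (0.755-fold, 0.731 to 0.781), below the limit. Its kinases switch the enzyme off. Pdk1, the kinase that HIF is known to induce, was at 12.1 and 7.31 TPM (0.605-fold, 0.516 to 0.709; log2 ratio -0.65) and past the limit, though not on FPKM (-0.53). Pdk3, another kinase of the family with known HIF induction, was at 22.1 and 21.4 TPM, with an interval of 0.832 to 1.12 that includes 1. The share of Pdk1 in the summed level of both kinases was 35.3% (32.1% to 38.7%) in siSCR and 25.5% (22.5% to 28.7%) in siChd4. These shares leave out the other kinases of the family, Pdk2 at 24.1 and 22.5 TPM and Pdk4 at 3.29 and 2.19 TPM, which are not in the set and are named after their values were seen. The subunit gene and its HIF-linked kinase gene were both lower in the siChd4 library.

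**Figure D3:**
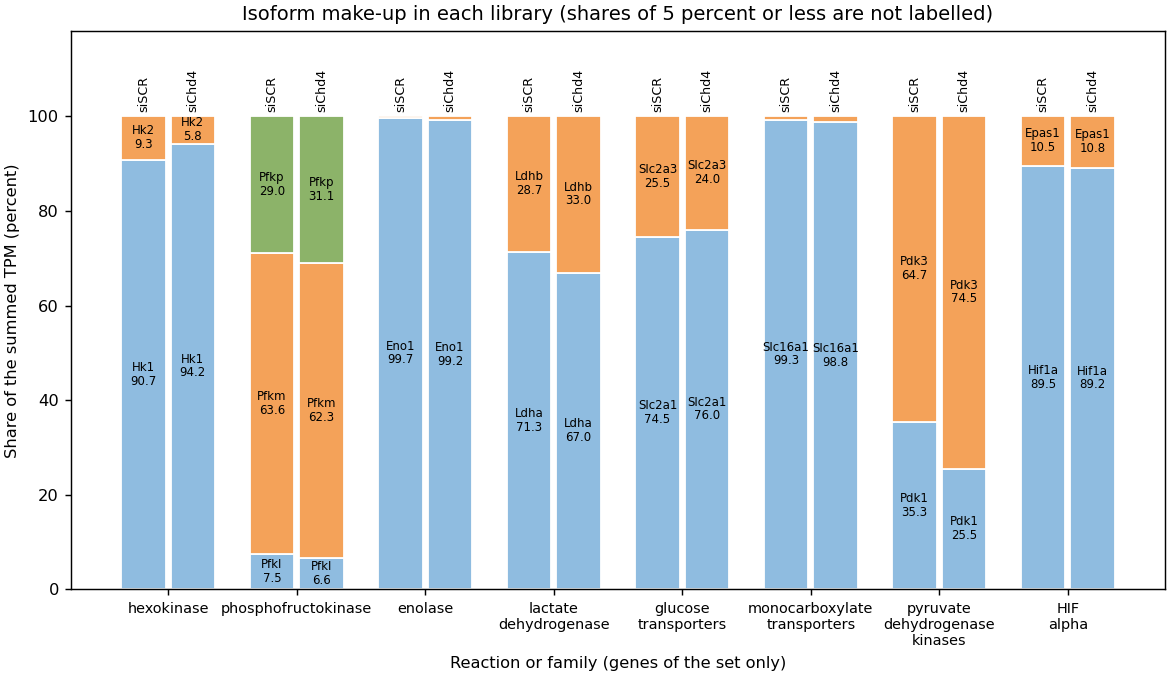
Share of each gene in the summed TPM of the genes of the set for that reaction or family (other family members, such as Pdk2 and Eno3, are left out), in percent, for the siSCR library (left bar of each pair) and the siChd4 library (right bar). The counting intervals do not overlap for Hk2 (9.31% and 5.76%), Eno2 (0.284% and 0.770%, too thin to label), Ldhb (28.7% and 33.04%) and Pdk1 (35.3% and 25.5%), and they overlap for the phosphofructokinases, both transporter pairs and the HIF alpha subunits.

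The HIF alpha subunits, which prolyl hydroxylases mark for destruction when oxygen is present, were nearly equal in transcript level. Hif1a was at 129 TPM in siSCR and 126 TPM in siChd4, and the interval of its fold, 0.930 to 1.01, includes 1. Epas1, which encodes the second alpha subunit, was at 15.2 TPM in both libraries, with an interval of 0.897 to 1.12. Hif1a was 89.5% of their sum in siSCR and 89.2% in siChd4. HIF activity is set largely by protein stability, which transcript levels do not measure.

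The 8 HIF targets outside glycolysis did not share a direction. Among the 7 with a mean of at least 1 TPM, 4 had log2 ratios above 0 and 3 below, 0 were past the limit as higher and 1, Ndrg1, as lower. Their median was 0.03, against -0.03 for the glycolytic enzymes and -0.04 for all genes, and it was -0.03 with the length trend subtracted. The 2 HIF prolyl hydroxylases of the set, which HIF induces as negative feedback, were both slightly lower. Egln1 was at 95.5 and 82.4 TPM (0.863-fold, 0.816 to 0.913) and Egln3 at 35.2 and 30.8 TPM (0.876-fold, 0.788 to 0.974). Another HIF prolyl hydroxylase gene, Egln2, outside the set, was slightly higher, at 64.27 and 70.84 TPM (1.102-fold, 1.014 to 1.199). Egln2 is named after its values were seen.

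The other targets above the minimum, Ndrg1 apart, were level or slightly higher. Vegfa, the growth factor for blood vessels, was at 42.9 TPM in siSCR and 50.5 TPM in siChd4 (1.18-fold, 1.08 to 1.28). Bnip3, a mitochondrial protein of hypoxia-induced mitophagy, was at 21.9 and 26.3 TPM (1.1996-fold, 1.03 to 1.40). P4ha1, the collagen prolyl hydroxylase subunit, was at 25.1 and 34.3 TPM (1.37-fold, 1.248 to 1.499), and 10.3% of all genes had a higher log2 ratio. None of these differences reached the limit. Ddit4, an inhibitor of mTORC1 signalling, was at 66.9 and 68.2 TPM, with an interval of 0.927 to 1.12.

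Ndrg1, a stress-responsive differentiation gene often used as a hypoxia marker, had the largest difference of the set but a low level. It was at 2.10 TPM in siSCR and 0.38 TPM in siChd4, from 47.0 and 8.98 estimated counts, a fold of 0.181 with a wide interval of 0.0780 to 0.373. Its log2 ratio on TPM plus 1 was -1.17, and 0.342% of all genes had a lower one. The minimum mean of 1 TPM was met only through siSCR. Ndrg1 is also a known gene of myelinating glia, and the oligodendrocyte lineage markers had summed levels of 44.0 TPM in siSCR and 80.5 TPM in siChd4. The largest part of both sums was Cspg4, a gene of precursors and not of myelin. The part of such cells in the level of Ndrg1 was not tested. Ankrd37, a small HIF target, had 6 estimated counts in each library (0.83 and 0.76 TPM), too few to show any difference.

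Other genes of these pathways were taken from lists by role, and their counts stand beside 6.74% of all genes past the limit as higher and 4.47% as lower. Of 14 further glycolytic isozymes and regulators with a mean of at least 1 TPM, 1 was past the limit as higher and 0 as lower. This was Pfkfb4, a HIF-inducible enzyme that makes the activator of phosphofructokinase, at 4.37 TPM in siSCR and 7.72 TPM in siChd4 (1.77-fold, 1.41 to 2.22). Of 9 further transporters and their partner proteins, 3 were past the limit as higher and 0 as lower: Slc2a6 at 6.72 and 14.7 TPM, the myo-inositol transporter gene Slc2a13 at 5.48 and 12.0 TPM, and Slc2a10 at 3.12 and 5.69 TPM. The last of these was not past the limit on FPKM. Their list had a median log2 ratio of 0.40, from 0.35 to 0.46 under the other scalings, with 8 of 9 genes above 0 against 5736 of all 12882.

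Of 13 further genes of the pyruvate gate, 10 had log2 ratios below 0 (8 to 10 under the other scalings), and 1 was past the limit: Pdpr, a regulatory subunit of the phosphatase that switches pyruvate dehydrogenase on, at 53.5 TPM in siSCR and 33.4 TPM in siChd4 (0.624-fold, 0.590 to 0.660), though not with the length trend subtracted (log2 ratio -0.52). The tricarboxylic acid (TCA) cycle oxidises the acetyl groups that pyruvate dehydrogenase makes. Its list also holds Aco1, Idh1 and Mdh1, genes of cytosolic counterparts of its enzymes. Of these 20 genes, 19 were below 0, where 55.3% of all genes were, and 19 were below 0 under each of the other scalings too. The gene above 0 on TPM was Idh1, at 311 TPM in siSCR and 389 TPM in siChd4. The median of the 20 genes of this list was -0.23, from -0.27 to -0.17 under those scalings, and their summed level was 7042 and 5993 TPM. Only Suclg2, a succinate-CoA ligase subunit, was past the limit among them, at 194 and 114 TPM (0.589-fold, 0.558 to 0.620).

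In the pentose phosphate pathway, which branches off after hexokinase and yields NADPH and ribose, 6 of 11 genes were above 0 and 5 below, with a median of 0.014 (-0.030 with the length trend subtracted). H6pd, its counterpart enzyme in the endoplasmic reticulum, was past the limit as lower, at 6.03 and 3.47 TPM, though not on FPKM. The enzymes G6pdx (133 and 182 TPM), Pgd (148 and 192 TPM) and Tkt (311 and 381 TPM) were higher in siChd4 by 1.37-fold, 1.30-fold and 1.23-fold, all below the limit. These 3 genes are named after their values were seen.

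**Figure D4:**
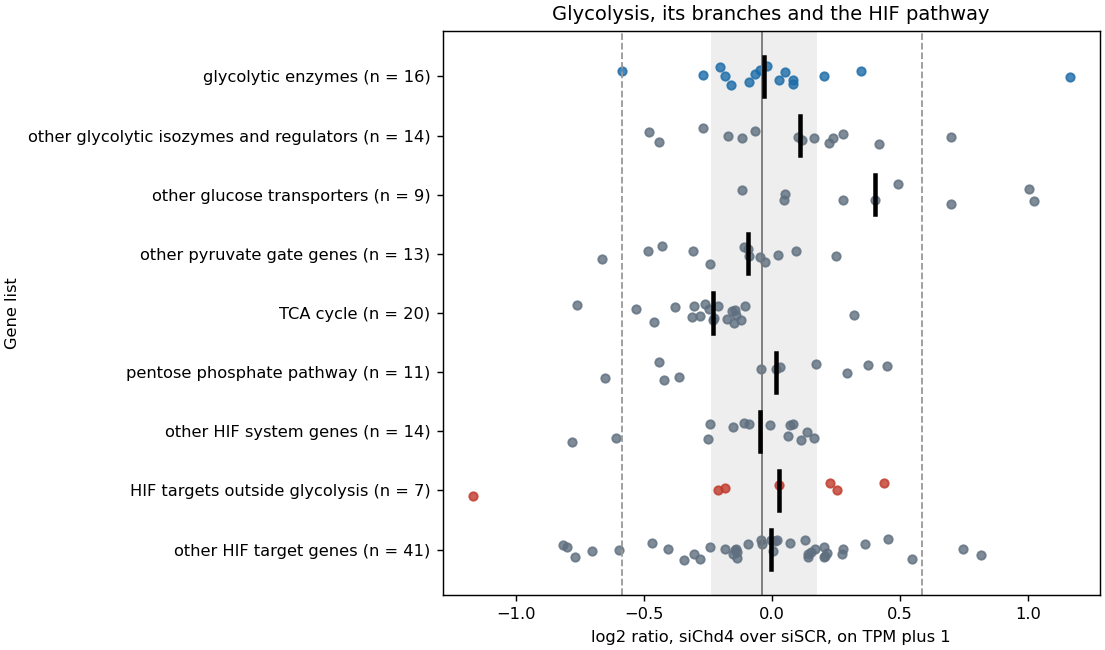
Log2 ratio (siChd4 to siSCR, TPM plus 1) for every gene with a mean of at least 1 TPM in 9 lists (1 point per gene, black bars for list medians). The grey band and line show the middle 50% (-0.24 to 0.17) and the median (-0.04) of all genes, and dashed lines the 1.5-fold limit. The glycolytic enzymes and HIF targets have medians near the line. The median of the TCA list lies to its left and that of the list labelled other glucose transporters to its right. That list also holds the partner protein genes Bsg and Emb and the myo-inositol transporter gene Slc2a13, and its median is the value of Bsg.

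Further genes of the HIF system gave no common direction. Of 14 partners and regulators, 2 were past the limit as lower and 0 as higher: Hif3a, an alpha subunit that can restrain the others, at 2.04 TPM in siSCR and 0.77 TPM in siChd4, and the coactivator gene Crebbp at 19.6 and 12.5 TPM. Crebbp was past the limit with a pseudocount of 0.1 but under none of the other 5 scalings. Hif3a was not past the limit on FPKM, and it met the minimum mean of 1 TPM only through siSCR. Arnt, the partner subunit of both HIF alpha proteins, was at 34.5 and 30.9 TPM, and Vhl, which targets them for degradation, at 48.6 and 40.7 TPM, neither past the limit. Arnt and Vhl are named here for their roles, after their values were seen.

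Of 41 other HIF targets, 2 were past the limit as higher and 5 as lower, which is 4.88% and 12.2% against 6.74% and 4.47% of all genes. The lower count was 3 on FPKM and on CPM with TMM factors, and the median log2 ratio was -0.003. The higher genes were Stc2, a secreted glycoprotein gene (8.20 TPM in siSCR and 15.2 TPM in siChd4), and the chemokine receptor gene Cxcr4 (7.01 and 12.4 TPM). The lower genes with a counting interval that excludes 1 were the adenylate kinase gene Ak4 (39.2 and 21.8 TPM), the carbonic anhydrase gene Car12 (6.42 and 3.26 TPM), Ppp1r3c of glycogen storage (52.9 and 30.7 TPM) and the transferrin receptor gene Tfrc (120 and 79.0 TPM). The remaining one, S100a4, came from 18 estimated counts in siSCR and 10 in siChd4 and had an interval of 0.222 to 1.23. It was not past the limit on FPKM (-0.50) or on CPM with TMM factors (-0.36). Tfrc was past the limit only with pseudocounts of 1 and 0.1 on TPM, and not under the other 5 scalings.

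Some limits bear on single genes. Of the 33 genes, 23 had a counting interval that excludes 1, 9 of them above and 14 below, but these intervals leave out the spread between cultures. The share of all genes with such an interval was not computed, so this count is not a result about the set. Abundant genes have narrow intervals, and that of Gapdh excludes 1 at a fold of 1.02. Abundant glycolytic genes have near-identical copies elsewhere in the genome that can share their reads. Of these, Eno1b was listed at 1.18 TPM in siSCR and 0.10 TPM in siChd4, and Aldoart1 at 0.65 and 0.80 TPM. Exons of 13 genes overlap a gene on the opposite strand in the GENCODE M21 annotation, among them Aldoa with Fam57b, which was at 14.4 and 34.4 TPM. The sources used here do not say whether the counting used strand, so reads from such pairs cannot be told apart. Transcript lengths implied by counts and FPKM differed between the libraries by a factor of 0.924 to 1.02 over the 33 genes, relative to other genes.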

How the data were processed

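Total RNA from mouse neural stem cells was sequenced after transfection with a scrambled or a Chd4 siRNA (1 library each). The authors deposited 1 table by gene that holds, per the file headers, TPM, FPKM and estimated counts. The submitters' processing notes name mm39, and the sources used here do not name the aligner or the counter. Log2 ratios (siChd4 to siSCR) were computed here after adding 1 to each TPM. Genes below an average of 1 TPM were left out, which kept 12882, and a limit of 1.5-fold was read as a size, with no test. Intervals are exact Clopper-Pearson 95% intervals of the estimated counts, rounded to whole numbers and put on the TPM scale, and those of sums use the delta method. They cover counting error only, and a floor of 3 counts is 0.151 (siSCR) and 0.149 (siChd4) CPM. The members and lists were chosen with earlier results of these data known. All members are named, and of other pathway genes those past the limit, up to 6 per direction and list. Lists of astrocyte markers (1 of 7 past the limit as higher, 2 as lower) and fibroblast markers (1 of 2 as higher, 1 as lower) were also counted. These counts stand beside 6.74% of all genes as higher and 4.47% as lower. The higher fibroblast marker, Col1a1, met the minimum only through siChd4, at 0.64 TPM in siSCR and 1.96 TPM in siChd4. The lower one was Pdgfrl, at 3.81 and 1.44 TPM. Alternatives were adding 0.1 to TPM, scaling by median of ratios, by upper quartile or by TMM on CPM (edgeR 4.0.16, for TMM factors only), FPKM, subtracting a lowess trend (span 0.3) on transcript length, minimums of 0 and 5 TPM, and limits of 25% and 2-fold. Python 3.11.15, scipy 1.17.1 and statsmodels 0.14.6 were used, and the calculations were tested on simulated data.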

Additional observations from a re-analysis of the deposited data

How the results depend on the processing

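The 33 genes gave 198 log2 ratios under 6 other settings, of which 165 differed from the reported value by less than the counting error and 33 by more, and 12 had another sign, all from genes within 0.05 of 0 (Gapdh, Ddit4, Pgk1, Hif1a, Pdk3 and Pfkm). None of the 4 genes past 1.5-fold turned its sign, and 21 of their 24 values were past the limit. The exceptions were Slc16a1 with upper quartile scaling and on FPKM, and Pdk1 on FPKM. The median of the glycolytic enzymes was 0.018 with upper quartile scaling and 0.026 on FPKM. The number of these enzymes past the limit was 2 with a pseudocount of 0.1 and on CPM with TMM scaling, where Hk2 is added, and 3 with a limit of 25% above the other library in place of 50%. HIF targets past the limit numbered 0 with a mean TPM of at least 5, which leaves out Ndrg1, and 2 at the 25% limit. Over all 33 genes, 3 were higher and 5 lower at the 25% limit, and 1 was lower at 2-fold and on FPKM. Over all genes, 868 were higher and 576 lower, against 721 and 295 on FPKM, 1920 and 2209 at the 25% limit, 290 and 81 at 2-fold, and 533 higher with a mean TPM of at least 5. Higher genes were 60.1% of those past the limit, and 71.0% on FPKM. A pseudocount of 1 narrows ratios more on FPKM, whose values are smaller. FPKM is also not set to the same total in both libraries, and the median log2 ratio of all genes was 0.0545 higher on it. Such a shift adds to the higher genes and takes from the lower ones. The part of each in that difference was not tested. The summed level of the enzymes had a fold of 1.01 on FPKM and 0.999 on CPM, and the share of Eno2 differed by 0.71 points on CPM, which is not per length, against 0.49 on TPM. The median of all genes moved by at most 0.055 from the reported one, on FPKM. Leaving out a library was not possible with 1 per group. No paired analysis was possible because there was 1 library per group. Depth limits Slc16a3, Ankrd37 and Ndrg1.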
